A study of Mus musculus with 11 samples.

Results

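Mast cells are tissue-resident granulocytes that store proteases, histamine and heparin in secretory granules and release them when antigen cross-links IgE on their surface. Their survival depends on KIT, the receptor for stem cell factor, and connective tissue mast cells of the mouse are recognised by the chymase, tryptase and carboxypeptidase genes they transcribe at high levels. In white adipose tissue (WAT) they are a minor population of the stromal fraction, lying near vessels and among adipocytes, and their numbers have been linked to obesity.

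The genes described here are 8 mast cell genes named by symbol. They are the chymases Cma1 and Mcpt4, the carboxypeptidase Cpa3, the tryptase Tpsb2, the receptor tyrosine kinase Kit, the histamine-forming enzyme Hdc, and the IgE receptor chains Fcer1a and Ms4a2. The deposited table held 7 of the 8 among its 12787 genes, and Hdc, which was not listed, has no expression value here. The genes were selected on their measured values in the comparison of the diets, so their differences between the groups are given as a description without a test.

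RNA was sequenced from the gonadal WAT of 11 male C57Bl6/J mice, with 1 library per mouse. All animals received a 60% high fat diet (HFD) for 20 weeks. The 5 HFD control mice, numbered 2 to 6, were given vehicle, and the 6 IMC-treated mice, numbered 7 to 12, were given iodomethylcholine (IMC) at 0.06% w/w, an inhibitor of the bacterial choline TMA lyase CutC. A further control library was dropped by the submitters for quality, and the labels give neither age nor the length of IMC exposure for these animals.

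Values are log2 CPM, the log2 of read counts relative to the library size (CPM) after upper-quartile scaling, so that equal ratios give equal differences. Reads on the listed genes numbered from 22320022 to 25155366 per library. In HFD control mouse 2 each of the 7 listed genes was higher than in the other 4 controls, and in IMC-treated mouse 7 each was lower than in the other 5 treated mice. Differences are therefore also given without these mice. Because whole tissue was sequenced, fewer mast cells and less of each RNA per mast cell cannot be told apart.

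The start sites of the 7 genes with a RefSeq promoter window, Hdc among them (assembly GRCm38.p6, from 250 bases before to 50 bases after the annotated start), were read for the letters bound by GATA factors, since GATA1 and GATA2 are regulators of mast cell identity. Tpsb2 had no window. The words AGATAA or AGATAG and TGATAA or TGATAG, on both strands, occurred in 6 of the 7 windows, all but that of Kit. Over all 32851 windows of 300 bases in the table, 29.8% held at least 1 such word and 1.76% held at least 3. The windows of 5 measured genes are shown 5′ to 3′ on the strand of the gene, with the GATA words in capitals.
Cma1: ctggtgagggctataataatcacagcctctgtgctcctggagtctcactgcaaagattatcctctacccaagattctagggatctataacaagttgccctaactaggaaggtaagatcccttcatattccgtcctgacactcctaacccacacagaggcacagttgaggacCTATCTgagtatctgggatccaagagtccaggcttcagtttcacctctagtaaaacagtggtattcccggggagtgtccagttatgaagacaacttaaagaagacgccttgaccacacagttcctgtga
Mcpt4: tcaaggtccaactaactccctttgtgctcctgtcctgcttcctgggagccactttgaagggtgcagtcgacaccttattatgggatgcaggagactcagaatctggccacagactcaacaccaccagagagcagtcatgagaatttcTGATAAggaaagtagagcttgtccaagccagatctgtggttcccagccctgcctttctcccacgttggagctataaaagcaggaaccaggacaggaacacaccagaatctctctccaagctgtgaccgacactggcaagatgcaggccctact
Cpa3: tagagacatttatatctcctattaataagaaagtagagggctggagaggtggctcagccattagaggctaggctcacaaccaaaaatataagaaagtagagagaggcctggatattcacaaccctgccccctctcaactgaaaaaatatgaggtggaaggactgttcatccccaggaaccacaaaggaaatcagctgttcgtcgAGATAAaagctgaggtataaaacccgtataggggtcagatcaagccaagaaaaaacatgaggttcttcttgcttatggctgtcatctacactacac
Fcer1a: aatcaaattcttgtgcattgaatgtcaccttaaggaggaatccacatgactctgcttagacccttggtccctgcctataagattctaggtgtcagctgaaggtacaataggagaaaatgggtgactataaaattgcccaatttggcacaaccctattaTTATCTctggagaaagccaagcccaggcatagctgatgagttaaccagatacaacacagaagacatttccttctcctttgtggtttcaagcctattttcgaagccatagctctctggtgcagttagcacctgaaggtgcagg
Ms4a2: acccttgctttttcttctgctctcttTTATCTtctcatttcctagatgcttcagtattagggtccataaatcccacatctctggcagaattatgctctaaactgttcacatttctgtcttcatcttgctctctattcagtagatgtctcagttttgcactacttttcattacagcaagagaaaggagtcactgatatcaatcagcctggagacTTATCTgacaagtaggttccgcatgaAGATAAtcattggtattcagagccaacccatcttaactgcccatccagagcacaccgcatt
All 5 windows lie on the minus strand, at chr14:55944626-55944925 for Cma1, chr14:56062261-56062560 for Mcpt4, chr3:20242132-20242431 for Cpa3, chr1:173227180-173227479 for Fcer1a and chr19:11623670-11623969 for Ms4a2. The first base of the word lay 79 bases before the start in Cma1, 103 in Mcpt4, 46 in Cpa3 and 92 in Fcer1a. Ms4a2 held 3 words, at 224, 37 and 11 bases before the start. The E-box words CATGTG and CACGTG, the letters read by MITF, were found in 1 of the 7 windows, that of Fcer1a, against 20.4% of all windows. A match is a description of letters and not a binding site.

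The granule proteases were the most abundant of the 7 genes per length of exon and were lower in every IMC-treated mouse than in every HFD control mouse. Cma1 encodes mast cell protease 5, a chymase-family protease, and lies at chr14:55941451-55944675 on the minus strand. Its level was 7.81 log2 CPM in HFD control mouse 2 and 6.72, 6.57, 6.64 and 6.92 log2 CPM in mice 3 to 6. In IMC-treated mice it ranged from 4.72 in mouse 7 to 5.86 in mouse 10, with a median of 5.39 log2 CPM. The groups did not overlap, and the lowest control stood 0.71 above the highest treated mouse. Group means were 6.93 ± 0.51 (SD, n = 5) and 5.38 ± 0.42 (SD, n = 6), a difference of -1.56 log2 CPM, or 2.94-fold lower with IMC. Only 2 of the 12787 listed genes had a more negative difference, a rank taken from the contrast on which the genes were chosen.

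Mcpt4, at chr14:56059744-56062310, encodes the mouse chymase that cleaves extracellular matrix and angiotensin I. HFD control mice had 7.93, 6.84, 6.69, 6.81 and 7.20 log2 CPM from mouse 2 to mouse 6. IMC-treated mice ranged from 5.28 to 6.12 log2 CPM, with a median of 5.77. Again no treated mouse reached the lowest control, and the gap was 0.56. The means were 7.09 ± 0.51 (SD, n = 5) for controls and 5.76 ± 0.30 (SD, n = 6) for treated mice, and differed by -1.34 log2 CPM.

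Cpa3, the zinc carboxypeptidase that removes C-terminal hydrophobic residues from peptides cut by chymases, lies at chr3:20215616-20242209 on the minus strand, with the microRNA gene Mir7007 inside its bounds. Its levels were 7.82, 6.78, 6.75, 6.80 and 6.94 log2 CPM in HFD control mice 2 to 6. They ran from 5.10 to 6.11 log2 CPM in IMC-treated mice, with a median of 5.55. The controls other than mouse 2 lay close together, with an SD of 0.084 without that mouse and 0.45 with it. The difference of the means was -1.42 log2 CPM, and the gap between the groups was 0.65.

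Tpsb2, the tetrameric tryptase stored on heparin, is encoded at chr17:25366308-25368096 on the plus strand. Its levels were 8.55, 7.47, 7.30, 7.35 and 7.81 log2 CPM in HFD control mice 2 to 6. Treated mice ranged from 5.50 to 6.74 log2 CPM, with a median of 6.33. The groups were 0.56 apart, and the means of 7.70 ± 0.52 (SD, n = 5) and 6.25 ± 0.47 (SD, n = 6) differed by -1.44 log2 CPM. Tpsab1, the neighbouring tryptase, was not listed, and reads could be divided between such similar paralogs by the counting.

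**Figure D1:**
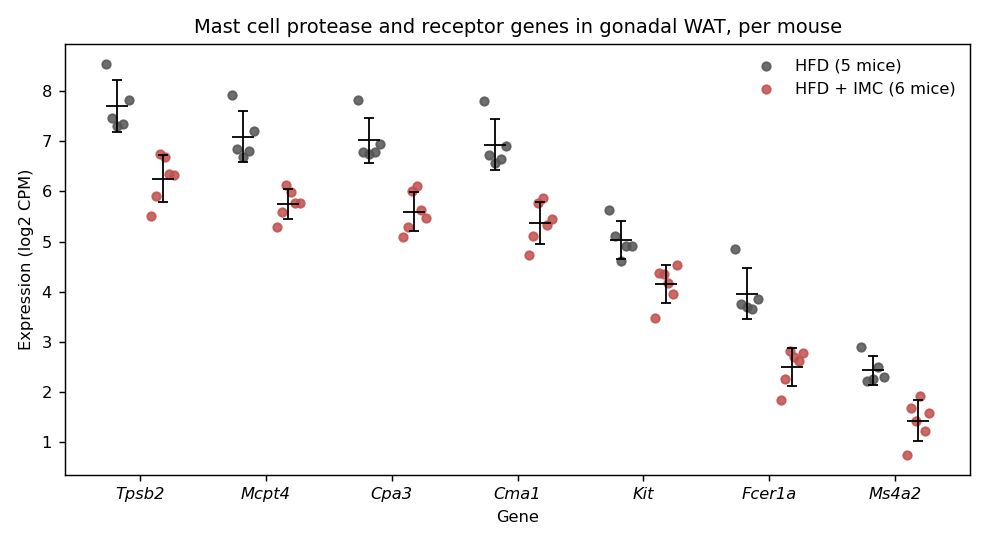
Expression of the 7 listed mast cell genes (vertical axis, log2 CPM) in each HFD control mouse (grey, 5 mice) and IMC-treated mouse (red, 6 mice), with points in order of mouse number and bars at the mean ± SD. For each gene every red point lies below every grey point, by 0.83 for Fcer1a and by 0.08 for Kit, and the leftmost grey point, mouse 2, is the highest of its group.

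The summed level of the 4 proteases was between 464 and 1070 CPM in HFD control mice, with a median of 507 CPM. In IMC-treated mice it was between 145 and 295 CPM, with a median of 224 CPM. All 7 genes together took a mean of 0.069% of the reads in HFD control mice and 0.025% in IMC-treated mice. All 7 had every treated mouse below every control, as did 10.5% of all listed genes, and this is the contrast on which they were chosen.

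Of the receptors, Fcer1a encodes the IgE-binding alpha chain of the high-affinity receptor and lies at chr1:173221269-173227232. Its levels were 4.86, 3.76, 3.69, 3.65 and 3.85 log2 CPM in HFD control mice 2 to 6. IMC-treated mice had between 1.84 and 2.82 log2 CPM, with a median of 2.66. This was the widest gap of the 7 genes, 0.83, and the difference of the means was -1.46 log2 CPM. The ratio of Fcer1a to the proteases barely moved, since Fcer1a minus the protease mean was -3.22 ± 0.09 (SD, n = 5) log2 among controls and -3.24 ± 0.17 (SD, n = 6) among treated mice.

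Ms4a2, the signal-amplifying beta chain of the same receptor, lies at chr19:11615517-11623790 and had the fewest reads of the 7 genes, 38 to 165 per mouse. It measured 2.90, 2.21, 2.25, 2.50 and 2.30 log2 CPM in HFD control mice 2 to 6. It lay between 0.74 and 1.93 log2 CPM in IMC-treated mice, with a median of 1.5. The groups were apart by 0.29, and the means differed by -1.0 log2 CPM. Unlike for Fcer1a, the ratio to the proteases was higher with IMC. Ms4a2 minus the protease mean was -4.75 ± 0.29 (SD, n = 5) log2 among controls and -4.32 ± 0.33 (SD, n = 6) among treated mice. The ranges of this ratio overlapped.

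Kit, the receptor for stem cell factor, lies at chr5:75574987-75656722 on the plus strand. HFD control mice had 5.64, 5.10, 4.62, 4.91 and 4.91 log2 CPM, again from mouse 2 to mouse 6. In IMC-treated mice it ranged from 3.48 to 4.54 log2 CPM, with a median of 4.26. The separation was narrow, 0.08 between the lowest control, mouse 4, and the highest treated mouse, mouse 12. Its difference of -0.89 log2 CPM was the smallest of the 7. Relative to the protease mean, Kit was -2.15 ± 0.23 (SD, n = 5) log2 among controls and -1.60 ± 0.36 (SD, n = 6) among treated mice, and the ranges of this ratio overlapped. Melanocytes and interstitial cells of Cajal also express Kit, and of 6 genes fixed as their markers the melanocyte genes Dct, Tyr, Mlana and Pmel were not listed, while Ano1 and Etv1 did not pass the test, Etv1 doing so without HFD control mouse 6 (limma adjusted p = 0.00993). The part of other Kit-expressing cells in the Kit level was not tested.

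Divided by the length of the annotated exons, the mean levels in HFD control mice were 138 CPM per kb for Tpsb2, 130 for Mcpt4, 119 for Cma1 and 89.5 for Cpa3, followed by 16.5 for Fcer1a, 3.79 for Kit and 1.95 for Ms4a2. In IMC-treated mice the corresponding levels were 49.8, 49.6, 39.4 and 33.0 CPM per kb for the proteases and 5.83, 2.04 and 0.988 for the receptors. The ranges of neighbouring proteases overlapped in both groups, but the order within a mouse was mostly shared. In all 5 controls Tpsb2 was above Mcpt4, Mcpt4 above Cma1 and Cma1 above Cpa3, and in all 6 treated mice Tpsb2 was above Cma1 and Cma1 above Cpa3. The exception was Mcpt4, which exceeded Tpsb2 in 2 of the 6 treated mice, so that this pair had no settled order there on this scale. The order depends on the exon lengths used. In CPM, Tpsb2 was above Mcpt4 in every treated mouse, at 45.3 and 38.9 CPM in mouse 7, and Cpa3 was above Cma1 in every mouse.

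Leaving out HFD control mouse 2 reduced the differences to -1.34 for Cma1, -1.13 for Mcpt4, -1.22 for Cpa3, -1.23 for Tpsb2, -1.24 for Fcer1a, -0.89 for Ms4a2 and -0.74 log2 CPM for Kit. With IMC-treated mouse 7 left out as well, they were -1.21, -1.03, -1.12, -1.08, -1.10, -0.75 and -0.61 log2 CPM in the same order. The direction held for all 7 genes in both cases.

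Variation among mice on the same diet was not used in choosing the genes, and was examined after subtracting each group's mean. Over the 11 mice the 6 pairs of proteases had Pearson r between 0.942 and 0.985 and Spearman rho between 0.90 and 0.982. Without mice 2 and 7 the pairs still had r between 0.802 and 0.956 over 9 mice. The 4 proteases thus moved together from mouse to mouse, although they share a library and its scaling in each mouse. Their mean deviation was 0.84 log2 in mouse 2, -0.59 in mouse 7, and at most 0.41 above the group mean in the other treated mice.

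The receptors divided in this respect. Fcer1a followed the mean of the proteases with r of 0.951, and with r of 0.787 without mice 2 and 7. Kit had r of 0.733 and Ms4a2 r of 0.717 with all mice, but -0.02 and 0.12 without these 2 mice. The likeness of Kit and Ms4a2 to the proteases within a diet therefore rested on mice 2 and 7. Ms4a2 also had the fewest reads. The within-group SD of the 7 genes stood between the 92.3 and 98.1 percentiles of all listed genes.

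**Figure D2:**
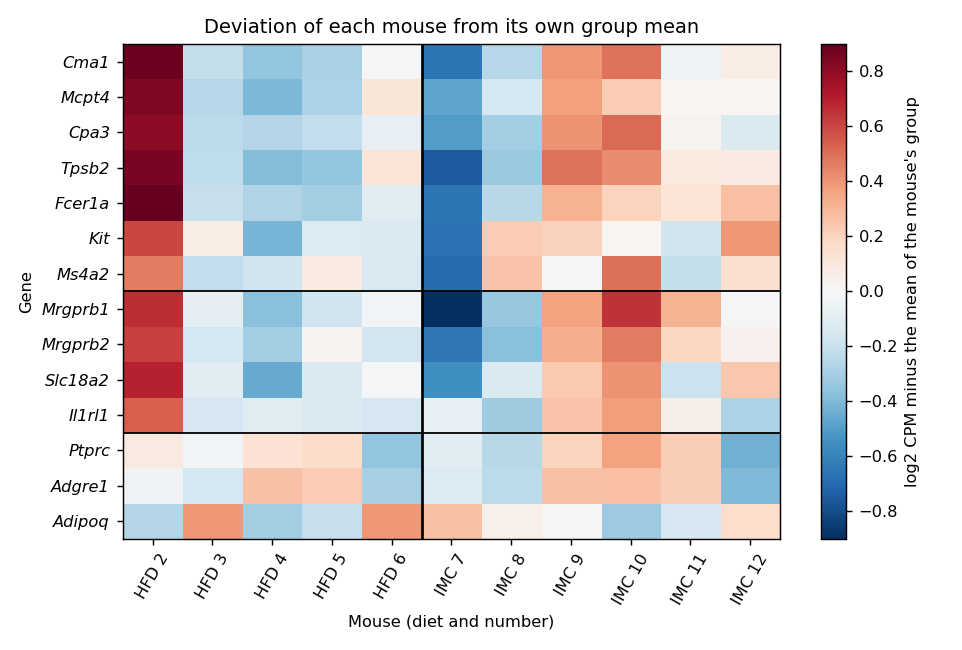
Deviation of each mouse from the mean of its own group (colour, log2 CPM) for the 7 mast cell genes (top), the 4 other mast cell genes Mrgprb1, Mrgprb2, Slc18a2 and Il1rl1 (middle), and the leukocyte gene Ptprc, the macrophage gene Adgre1 and the adipocyte gene Adipoq (bottom). Mouse 2 is high and mouse 7 low across the top block, with Cma1 at 0.88 and -0.65. In these mice Ptprc stands at 0.08 and -0.10 and Adgre1 at -0.03 and -0.12. Within groups Ptprc had r of 0.30 with the mean of the proteases and Adgre1 0.19. These lie below the medians of the pan-leukocyte genes (0.43) and macrophage markers (0.26), and the pan-leukocyte gene Laptm5, not shown, had 0.76. Ptprc was chosen after its values were seen.

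Among the 12780 other genes, 21 had r over 0.9 with the mean of the proteases within groups, and the median r was -0.05. The 12 highest were Nup62 (0.966), Abcf1 (0.947), Akr1b8 (0.942), Slc18a2 (0.934), Slc8b1 (0.933), Mrgprb2 (0.925), Agpat4 (0.922), Mrgprb1 (0.921), Rnf128 (0.919), BC028528 (0.918), Gpr162 (0.918) and Zdhhc18 (0.914). Of these, Slc18a2, Mrgprb2 and Mrgprb1 were in the lists of mast cell genes. Without mice 2 and 7 the 12 most similar genes shared 3 with this list, and 4 of the 21 genes had r over 0.9 both with and without these mice. With Cpa3 alone as the reference, 8 of the 12 were the same. Between the diets 11 of the 12 were lower in IMC-treated mice, and Abcf1 did not pass the test (limma adjusted p = 0.324). Of all listed genes, 21.0% were lower, and the proteases used as the reference were chosen on this contrast.

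Other genes of mast cells were taken from 8 hand-written lists, which held 103 genes, 78 of them listed. The lists were written with earlier results of these data known, so their counts are a description. With limma and adjustment over the whole table, 43 of the 78 were lower and 6 higher in IMC-treated mice, or 55.1% and 7.69%. Among all listed genes, 21.0% were lower and 20% higher. The median difference was -0.36 log2 CPM over the 78 genes and -0.03 over all genes. Without mice 2 and 7, 36 of the 78 were lower and 6 higher.

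Only 3 of the 78 genes had a difference below -1 log2 CPM. The Mas-related receptors Mrgprb1 and Mrgprb2, of which the latter mediates IgE-independent mast cell activation by cationic peptides, fell by 1.18 (SE 0.26, limma adjusted p = 0.00306) and 1.12 (SE 0.21, limma adjusted p = 0.00131) on the log2 scale. Mrgprb1 was at 5.08, 4.33, 4.04, 4.23 and 4.39 log2 CPM in HFD control mice 2 to 6 and between 2.25 and 3.88 log2 CPM in IMC-treated mice, without overlap. The third was Slc18a2, the vesicular transporter that loads histamine and serotonin into granules, which fell by 1.06 (SE 0.21, limma adjusted p = 0.00143). It was highest in mouse 2, at 3.63 log2 CPM, and lowest in mouse 7, at 1.32 log2 CPM, as the members were. Prss34, mast cell protease 11, which basophils also make, was the single listed gene of 10 further proteases and fell by 0.93 (SE 0.18, limma adjusted p = 0.00141).

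Of 20 listed granule and mediator genes, 10 fell (50%) and 2 rose (10%), against 21.0% lower and 20% higher among all listed genes. Serpinb1a, an inhibitor of chymotrypsin-like granule proteases, fell by 0.86 on the log2 scale (SE 0.10, limma adjusted p = 4.4e-05). The degranulation marker Cd63, measured here as RNA, fell by 0.62, and Vamp8, a SNARE of granule fusion, fell by 0.37. In HFD control mice Cd63 had a mean of 8.50 log2 CPM, above the 7.70 of Tpsb2. The part of other cells in its level was not tested. Hpgds, which makes prostaglandin D2, fell by 0.56 (limma adjusted p = 0.00124), whereas Ltc4s, the synthase of leukotriene C4, rose by 0.52 (limma adjusted p = 0.00156). Cyp11a1 differed by -0.73 log2 CPM with an SE of 0.29 and did not pass the test (limma adjusted p = 0.0596), though it did without HFD control mouse 4 (limma adjusted p = 0.0298) or IMC-treated mouse 9 (limma adjusted p = 0.0433). Hpgds, Ltc4s and Cyp11a1, and Plcg1, Mitf and Gata2 in the next paragraphs, were named after their values were seen, as was the leukocyte gene Ptprc shown above.

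Of 13 listed surface receptors, 9 fell (69.2%) and 0 rose, against 21.0% lower and 20% higher among all listed genes. The allergin Milr1 fell by 0.67, the interleukin-3 receptor chain Il3ra by 0.61 and the interleukin-33 receptor Il1rl1 by 0.64 (SE 0.15, limma adjusted p = 0.00462). Among 17 listed genes of IgE receptor signaling, 13 fell (76.5%) and 2 rose (11.8%). Fcer1g, the gamma chain that pairs with Fcer1a and Ms4a2 and serves other Fc receptors of myeloid cells, fell by 0.65, beside differences of -1.46 and -1.0 log2 CPM for its partners. The kinase Lyn fell by 0.40, the adaptor Lat2 by 0.62, and Plcg1 rose by 0.43 (limma adjusted p = 0.00183).

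The transcription factors were divided, with 6 of 11 lower (54.5%) and 1 higher (9.1%), against 21.0% and 20% of all listed genes. Spi1, which encodes the myeloid factor PU.1, fell by 0.60 and Runx1 by 0.40, while Stat5a, which acts downstream of KIT, rose by 0.30 (limma adjusted p = 0.00038). Mitf fell by 0.43 (limma adjusted p = 0.00391). Gata2 was 3.37 ± 0.36 (SD, n = 5) and 3.11 ± 0.32 (SD, n = 6) log2 CPM, and its groups overlapped (limma adjusted p = 0.265). Endothelial cells also express Gata2.

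The ligands that support or alert mast cells were measured in the same tissue. Kitl, stem cell factor, fell by 0.23 on the log2 scale (SE 0.06, limma adjusted p = 0.00688), the alarmin Il33 fell by 0.68 (SE 0.10, limma adjusted p = 0.00025) and Tgfb1 fell by 0.47. In all, 3 of 5 listed ligands fell and 0 rose. Of 7 genes for substrates and pathways that chymase acts on, 1 fell, the gelatinase Mmp2, by 0.43, and 0 rose, with a median difference of 0.07 log2 CPM. The angiotensin receptor Agtr1a in this list differed by 0.20 log2 CPM (limma adjusted p = 0.163) and was higher by 0.29 without IMC-treated mouse 12 (limma adjusted p = 0.0139). Of 5 genes for histamine receptors and breakdown, 0 fell and 1 rose, the amine oxidase Maob, by 0.57. Thus 60% of the ligands and 14.3% of the chymase list were lower, and 20% of the histamine list were higher. The shares over all listed genes were 21.0% lower and 20% higher.

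**Figure D3:**
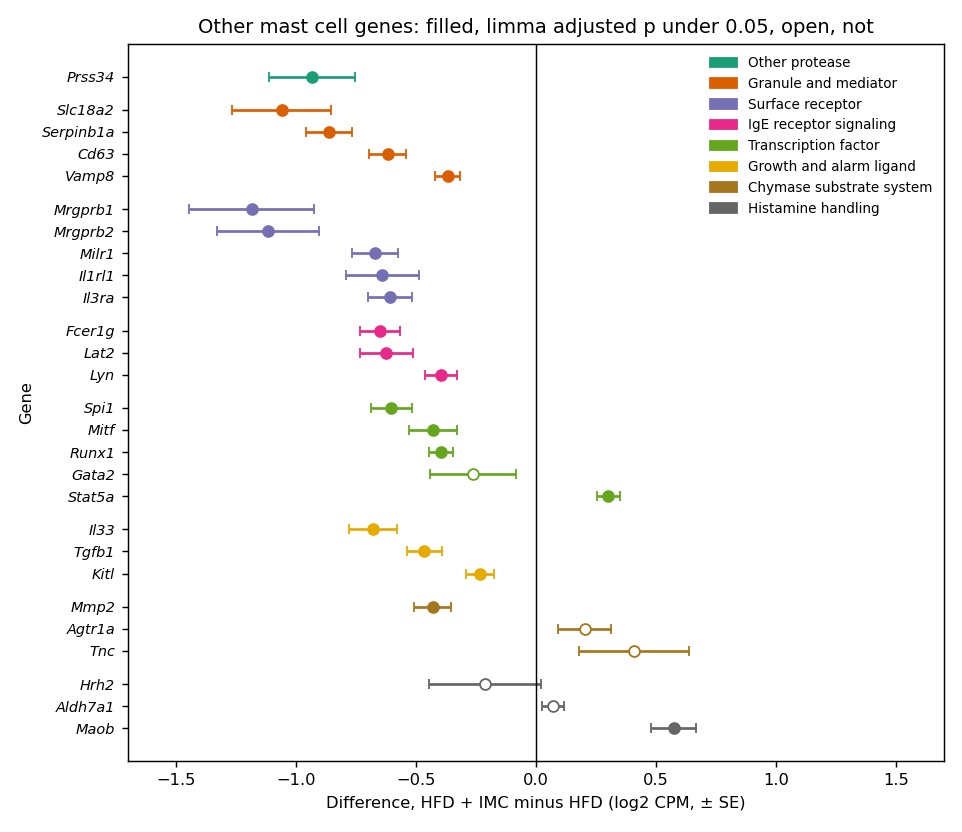
Difference between IMC-treated and HFD control mice (horizontal axis, log2 CPM, with SE) for 27 genes of mast cell biology, coloured by list, with filled points at a limma adjusted p under 0.05 over all 12787 genes and open points above it. Mrgprb1, Mrgprb2 and Slc18a2 lie below -1, and the plotted signaling genes and most plotted transcription factors between -0.65 and -0.26. Above 0 lie Stat5a and Maob, filled, and Tnc, Agtr1a and Aldh7a1, open. The signaling gene Plcg1 and the mediator gene Ltc4s, which rose by 0.43 and 0.52, are not plotted.

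Many of the signaling and receptor genes, and granule genes such as Cd63, are shared with macrophages and other leukocytes, which also moved. All 8 pan-leukocyte genes fell, with a median difference of -0.54 log2 CPM and summed levels of 3619 to 4622 CPM in HFD control mice and 2194 to 3336 CPM in IMC-treated mice. Of 14 macrophage markers 11 fell (78.6%) and 0 rose, with sums of 11001 to 13882 and 6551 to 9368 CPM. All 15 adipocyte markers rose, with a median difference of 0.87 log2 CPM and sums of 12106 to 17714 and 24249 to 28935 CPM. Of all listed genes, 21.0% were lower and 20% higher. The part of these shifts in tissue makeup in the mast cell values was not tested.

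The proteases were also lower relative to the leukocyte genes of the same mice. The protease mean minus the pan-leukocyte mean was -1.45 ± 0.45 (SD, n = 5) log2 among controls and -2.36 ± 0.32 (SD, n = 6) among treated mice, a difference of -0.91 without overlap. It was -0.74 without mouse 2 and -0.62 without mice 2 and 7. As the proteases were chosen on this contrast, this ratio is a description.

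**Figure D4:**
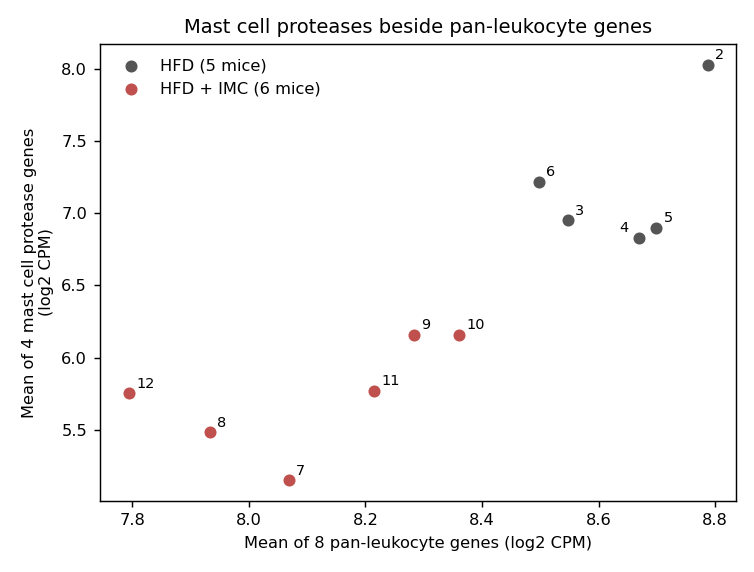
Mean of the 4 mast cell protease genes (vertical axis, log2 CPM) against the mean of the 8 pan-leukocyte genes (horizontal axis, log2 CPM) in each mouse, labelled by its number, for 5 HFD control mice (grey) and 6 IMC-treated mice (red). HFD control mice lie at 6.83 or above on the protease axis and IMC-treated mice at 6.16 or below, and both means are higher in every control than in every treated mouse.

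Cells that share single markers with mast cells were examined as well. Of 8 basophil markers 5 were listed, and the basophil protease Mcpt8 and the cytokine Il4 were not. Of the 5, 3 fell, with sums of 66.9 to 81.0 CPM in HFD control mice and 42.1 to 54.5 CPM in IMC-treated mice, and Cd200r3 fell by 0.91 (SE 0.28, limma adjusted p = 0.0185) but had an adjusted p of 0.0501 without mouse 2. All 5 are also in the lists of mast cell genes, so they are no separate measure of basophils, and Il3ra made up a mean of 71.8% of the sum. Eosinophil markers were listed for 2 of 8 genes, and the granule genes Epx and Prg2 were not listed. The chemokine receptor Ccr3 fell by 0.93 on the log2 scale (SE 0.19, limma adjusted p = 0.00215). Siglecf differed by -0.49 log2 CPM (limma adjusted p = 0.103) and passed the test without IMC-treated mouse 10 (limma adjusted p = 0.0323). The summed level of both was 9.49 to 14.4 CPM in HFD control mice and 5.04 to 8.32 CPM in IMC-treated mice. Among 8 markers of type 2 innate lymphoid cells 4 were listed, with 2 lower and 1 higher. The higher gene, Rora, lost the call without any 1 of several mice (limma adjusted p up to 0.113), and Il7r, one of the lower genes, lost it without HFD control mouse 2 or 4 or IMC-treated mouse 8, where its limma adjusted p was 0.0579, 0.0733 and 0.0556. The part of these cells in the mast cell values was not tested. Of other cells, 5 of 8 progenitor markers fell, 1 of 7 endothelial markers rose, 1 of 5 listed mesothelial markers fell, and neither the 1 listed lymphocyte marker nor the 2 listed neutrophil markers passed the test. Some of these markers passed it as higher in IMC-treated mice once 1 mouse was left out. This was so for the neutrophil marker S100a8 without HFD control mouse 6 (limma adjusted p = 0.0118), IMC-treated mouse 9 (0.0313) or mouse 11 (0.0337), and for the endothelial marker Kdr without HFD control mouse 3 (0.0135), IMC-treated mouse 7 (0.0429) or mouse 10 (0.0402). The endothelial marker Tie1 did so without HFD control mouse 3 (limma adjusted p = 0.0400) or mouse 6 (0.0409), and the progenitor marker Pdgfra passed as lower without HFD control mouse 6 (0.0341). None of 6 epididymis markers was listed. With all mice, 62.5% of the progenitor and 20% of the listed mesothelial markers were lower, against 21.0% of all listed genes. Of the endothelial markers 14.3% were higher, against 20% of all listed genes.

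Cma1 and Mcpt4 lie in the same protease cluster, with 120860 bases from the start of Cma1 to the end of Mcpt4. The 4 protein-coding genes annotated between them, Cma2, Mcpt1, Mcpt2 and Mcpt9, were not listed. The 4 nearest listed genes on each side of this interval were also read. Those before Cma1 lay 41.1 to 108 kb away, and those after Mcpt4 464 to 634 kb away. Of these 8 genes 2 were lower (Nfatc4 by 0.41 and Cenpj by 0.29 on the log2 scale), Sdr39u1 was higher by 0.51, and 5 did not pass the test. Of the 5, Nynrin and Khnyn passed without HFD control mouse 6 (limma adjusted p = 0.0239 and 0.0275), and Nynrin without IMC-treated mouse 11 (limma adjusted p = 0.0344). Sdr39u1 had a limma adjusted p of 0.0604 without mice 2 and 7. Among all listed genes, 21.0% were lower and 20% higher. Whether the neighbours differ from these shares was not tested.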

How the data were processed

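RNA sequencing of gonadal WAT from 11 mice was used, with groups taken from the sample labels. Per the labels and methods, the authors prepared directional mRNA libraries, used Trim Galore for trimming and STAR for alignment to mm10, removed low-count genes and used edgeR with upper-quartile scaling. The strand setting of the counting is not given in the sources used here. The authors deposited log2 CPM for 12787 genes, and every one reached 1 CPM in at least 1 mouse. Further deposited columns, not used here, give a log2 fold change, a mean log2 CPM, a likelihood-ratio score, a p-value and an FDR for the comparison made by the authors.

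The groups were compared on the deposited log2 CPM with limma 3.58.1 (lmFit, eBayes with trend) in R 4.3.3, two-sided, with Benjamini-Hochberg adjustment over all 12787 genes and a threshold of 0.05. Reads were recovered from the equal steps of the values. All values (100%) were whole reads within 1e-06 log2 CPM plus a constant averaging 0.25 reads, and these reads gave the depth. A read was worth 0.0403 to 0.0450 CPM. Reads are not independent molecules, and p-values set each difference against the spread between these mice, with variance information shared across genes. Mouse numbers do not pair the groups, and the labels name no batch.

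The members and lists were chosen with earlier results of these data known. Named were the members, in each list the 3 genes of smallest p, the first 2 listed genes of each cell marker list, the 12 genes most like the proteases within groups, and the 4 nearest listed genes on each side of Cma1 and Mcpt4. Hpgds, Ltc4s, Cyp11a1, Plcg1, Mitf, Gata2 and Ptprc were added after their values were seen. Likeness is the correlation of log2 CPM after subtraction of group means. Coordinates and promoters are from RefSeq tables of GRCm38.p6, the build of mm10, and exon lengths from GENCODE. Alternatives covered the variance model, a filter at a mean log2 CPM of 1, limma voom on recovered reads, total-count and median-of-ratios scaling, 2 added reads, and each mouse left out.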

Additional observations from a re-analysis of the deposited data

Results flagged for a closer look

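Within each group, the gap from the highest or lowest mouse to its nearest neighbour was divided by the range of the group. It was compared with Dixon's critical value at the 95% level. Of 190 groups tested, 13 exceeded it, and chance alone exceeds it in about 1 in 20 groups. HFD control mouse 2 was the high mouse in 8 of the 13. Of these, 3 were members of the gene set, Cma1 (0.724), Cpa3 (0.824) and Fcer1a (0.829). The other 5 were Cd200r3 (0.788) and Il1rl1 (0.936), both receptors that mast cells carry, Laptm5 (0.83), a pan-leukocyte gene, and Nup62 (0.822) and Rnf128 (0.74), which were among the genes most like the proteases. Nup62 and Rnf128 were named for that likeness, in which mouse 2 takes part, so their flags are not independent of those of the members.

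The remaining 5 were in other mice. Spi1 was lowest in HFD control mouse 3 (0.735), Rora lowest in HFD control mouse 4 (0.857), Upk3b highest in the same mouse (0.859), Khnyn lowest in HFD control mouse 6 (0.73) and Agtr1a lowest in IMC-treated mouse 12 (0.646). IMC-treated mouse 7, the lowest of its group for all 7 listed mast cell genes, exceeded the value for 0 of them.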

How the results depend on the processing

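All 7 listed mast cell genes stayed lower in IMC-treated mice under every alternative run. When single mice were left out, the median of their differences ranged from -1.50 to -1.22 log2 CPM, and the protease mean relative to the pan-leukocyte mean from -1.01 to -0.74. The number of other mast cell genes that fell ranged from 41 to 44, and of those that rose from 5 to 8. Over all genes, 2113 to 2604 were lower and 2178 to 2536 higher. Without HFD control mouse 2 and IMC-treated mouse 7 together, an alternative chosen after seeing the data, the mean r of the protease pairs was 0.906, and with single mice left out it ranged from 0.944 to 0.975. Scaling by total counts gave 3261 lower and 2202 higher genes. Of 58 named genes that passed the test, 5 lost it under at least 1 alternative (Cd200r3, Il7r, Rora, Slc8b1 and Sdr39u1), and of 28 that did not pass, 11 did so under at least 1 (Agtr1a, Siglecf, Pdgfra, Kdr, Tie1, S100a8, Etv1, Nynrin, Khnyn, Mphosph8 and Cyp11a1). The cause was not tested. No direction of a called gene reversed. No paired analysis was possible because the mouse numbers differ between the groups. Genes with few reads, such as Ms4a2, carry the most counting error.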
